A study of Mus musculus with 8 samples.

Results

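Tubulins and the enzymes that modify them were examined in germ cells of 15-day male mice with and without *Mgat2*, the gene of the Golgi enzyme that starts the second branch of complex N-glycans. Members were taken by gene name: every alpha-, beta-, gamma-, delta- and epsilon-tubulin gene, every *Ttll* and *Agbl* gene, and *Vash1*, *Vash2*, *Svbp*, *Atat1* and *Hdac6*. This gave 42 of the 55357 genes in the deposited table, after 4 names marked as pseudogenes were left out. They were 7 alpha-, 8 beta-, 2 gamma-, 1 delta- and 1 epsilon-tubulin gene, 13 *Ttll* genes, 5 *Agbl* genes and 5 others. Controls were C57BL/6 pups with floxed *Mgat2* alleles and no Cre (*Mgat2*[F/F], 4 libraries), and the conditional knockouts (cKO) were *Mgat2*[F/F]:*Stra8*-iCre pups (4 libraries). Both groups carried the floxed alleles. *Stra8*-iCre is a transgene active in spermatogonia, so deletion is aimed at germ cells, and since no group carried it without floxed alleles, its own effect cannot be told apart from that of the deletion. Cells were freed from the tubules by collagenase and trypsin and were not sorted. Per the study, RNA was made from 4 males of each genotype, so the spread between libraries includes that between animals.

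Microtubules are hollow polymers of alpha- and beta-tubulin dimers. In the testis they form the meiotic spindle, the manchette that shapes the spermatid head and the axoneme of the sperm tail. Gamma-tubulin starts new microtubules at the centrosome, and delta- and epsilon-tubulin are needed for the triplet microtubules of centrioles. Most alpha-tubulins are made with a C-terminal tyrosine, which the vasohibins VASH1 and VASH2, with their partner SVBP, take off. TTLL enzymes add glutamate or glycine chains to the acidic tails of both tubulins, and AGBL proteins, also known as cytosolic carboxypeptidases, shorten glutamate chains. ATAT1 acetylates a lysine inside the microtubule and HDAC6 removes that acetyl group.

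The modified tails are shown here as the coding strand of the last 15 codons before the stop, in the GRCm39 build, because the isotypes differ most at this end and the enzymes below act on it. In the alpha-tubulin lines capitals mark the last codon.
*Tuba1b* (chr15:98829466-98829510, minus strand): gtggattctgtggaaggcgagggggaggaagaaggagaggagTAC
*Tuba1c* (chr15:98935843-98935887, plus strand): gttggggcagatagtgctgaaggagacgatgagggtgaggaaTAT
*Tuba3a* (chr6:125255324-125255368, minus strand): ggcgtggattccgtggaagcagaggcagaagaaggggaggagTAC
*Tuba3b* (chr6:145567066-145567110, plus strand): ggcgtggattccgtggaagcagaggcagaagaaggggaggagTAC
*Tuba4a* (chr1:75192269-75192313, minus strand): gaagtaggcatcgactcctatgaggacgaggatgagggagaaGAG
*Tuba8* (chr6:121202991-121203035, plus strand): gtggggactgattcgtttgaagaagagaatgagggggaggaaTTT
Of the genes shown, *Tuba1b*, *Tuba1c*, *Tuba3a* and *Tuba3b* ended in a tyrosine codon, and *Tuba4a* and *Tuba8* did not. *Tuba3a* and *Tuba3b* had the same 45 bases there. Glutamate codons made up 7 of the 15 in *Tuba1b*, 6 in *Tuba3a*, *Tuba3b*, *Tuba4a* and *Tuba8*, and 4 in *Tuba1c*.

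For the 3 most abundant beta-tubulins, capitals mark every glutamate codon, the possible acceptors of a glutamate or glycine chain.
*Tubb4b* (chr2:25112323-25112367, minus strand): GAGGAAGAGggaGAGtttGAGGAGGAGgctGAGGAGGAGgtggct
*Tubb5* (chr17:36145877-36145921, minus strand): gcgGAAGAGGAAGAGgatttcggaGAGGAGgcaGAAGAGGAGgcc
*Tubb3* (chr8:124148374-124148418, plus strand): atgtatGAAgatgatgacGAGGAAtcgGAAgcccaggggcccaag
The *Tubb4b* tail held 10 glutamate codons, that of *Tubb5* 9 and that of *Tubb3* 4. Several isotypes are close to identical over their whole coding sequence, which bears on how reads were divided among them. *Tuba1a* and *Tuba1b* differed at 23 of 1353 coding bases (98.3% identical), and *Tuba3a* and *Tuba3b* at 41 of 1350 (97.0%). *Tubb2a* and *Tubb2b* differed at 47 of 1335 (96.5%). Values of single members of these groups are therefore uncertain.

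The libraries held 12584726 to 15907505 expected counts in controls and 14069373 to 15572196 in cKO. Levels per library are given as normalized read counts (CPM, scaled to the library total adjusted by TMM, the normalization of edgeR). *Mgat2* was at 69.8, 31.8, 64.3 and 59.8 CPM in control replicates 1 to 4 and at 35.3, 20.1, 37.6 and 16.0 in cKO replicates 1 to 4. Control replicate 2 was below 2 of the cKO libraries, so the groups overlapped; the log2 fold change was -1.05 (SE 0.36, adjusted p = 0.47 in edgeR and 0.025 in DESeq2; two-sided exact permutation p = 0.086). Without strand, reads from the 11.6% of *Mgat2* exon bases shared with *Rpl36al* on the opposite strand cannot be assigned to either gene. *Rpl36al* had a log2 fold change of -1.25. All 5 germ cell markers were above 0 in every library (summed TPM, the length-corrected transcript level, 1989 to 2464 in controls and 1769 to 2044 in cKO). All 9 Sertoli cell markers were also above 0 in every library, so the preparations were not of germ cells alone. Their summed TPM was 4751 to 5791 in controls and 4875 to 5815 in cKO. Most of it was *Clu*, at 3754 to 4543 TPM in controls and 3831 to 4590 in cKO. The sums therefore do not measure 1 cell type against another. Summed TPM in controls and cKO was 35.9 to 89.7 and 48.6 to 73.8 for 6 Leydig cell markers, 322 to 443 and 296 to 576 for 5 peritubular and endothelial markers, 18.3 to 37.8 and 29.1 to 37.4 for 5 macrophage markers, and 80.7 to 98.7 and 87.3 to 117 for 6 markers of undifferentiated spermatogonia. All 7 pachytene spermatocyte markers were above 0 in every library and summed to 526 to 2094 TPM in controls and 209 to 681 in cKO, with replicate 1 highest in each genotype. Their log2 fold change was below 0 for 6 of the 7 (median -1.72), and for 5 (median -0.59) without control replicate 1; edgeR called 0 of them, 2 were lower at an unadjusted p under 0.05, and DESeq2 called 1. The 6 spermatid markers summed to 11.7 to 44.5 TPM in controls and 7.02 to 18.8 in cKO, and 2 of them were at 0 throughout. Replicate 1 was also the highest library of both genotypes for 15 of the members tested, and results that rest on it are given without it as well. In such bulk samples, fewer cells of a type and less RNA per cell cannot be told apart.

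**Figure D1:**
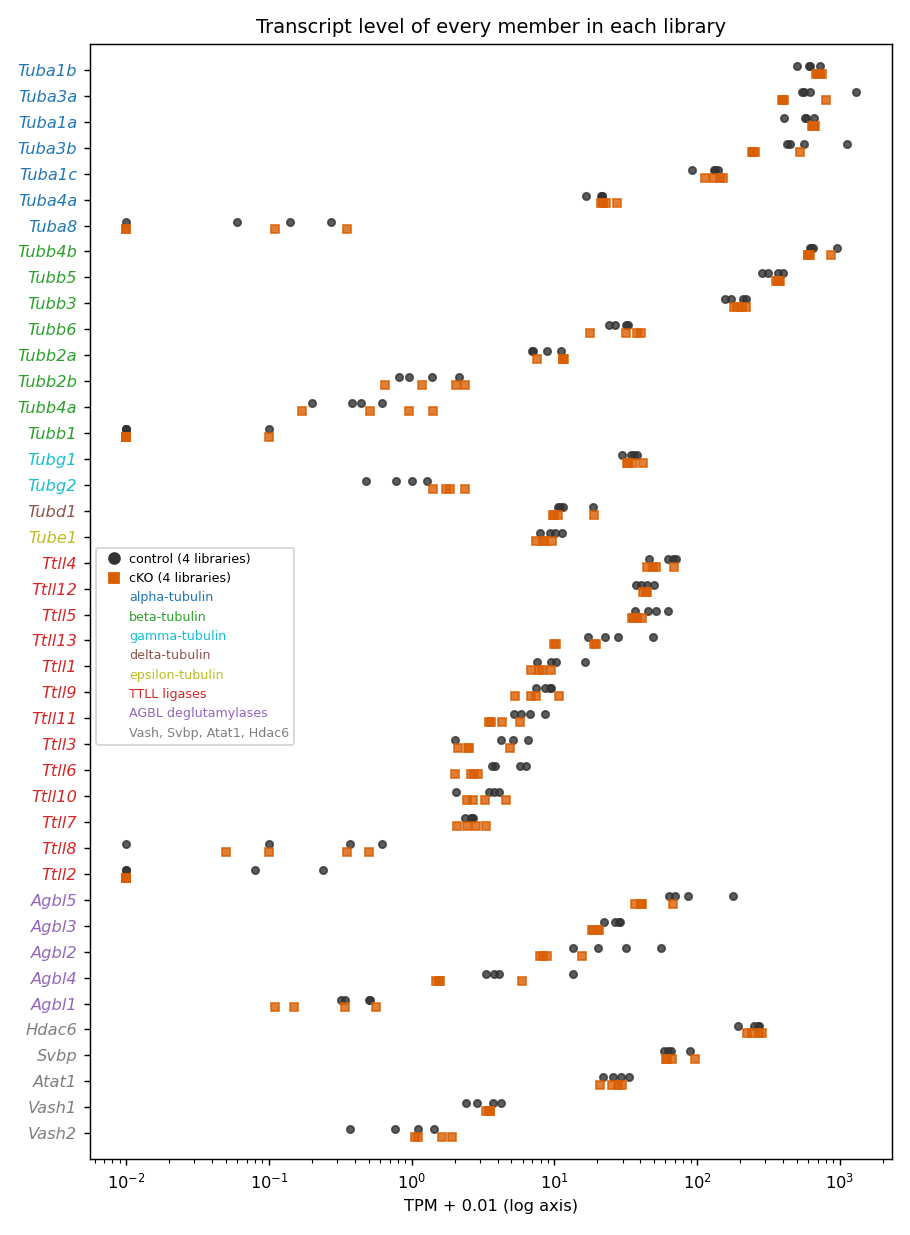
Transcript level of all 42 members (TPM with 0.01 added, log axis) in each of the 4 control libraries (circles) and 4 cKO libraries (squares), grouped by family and ordered by mean level. *Tuba1b*, *Tuba3a*, *Tuba1a*, *Tuba3b* and *Tubb4b* lie highest, and *Tuba8*, *Tubb1*, *Ttll8*, *Ttll2* and *Agbl1* stay under 1 TPM.

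Of the 42 members, 37 reached 1 TPM in at least 1 library and were tested with 20187 genes in all. *Tubb4a* was the only member that passed through a single genotype, at 1.39 TPM in cKO replicate 4. Untested were *Tubb1*, the tubulin of platelets (0 to 0.09 TPM), *Tuba8* (0 to 0.34), *Ttll2* (0 to 0.23), *Ttll8*, a glycine ligase (0 to 0.61), and *Agbl1* (0.10 to 0.55). *Tubb1* and *Ttll2* held 3 counts or fewer in every library, the limit taken here for detection (0.190 to 0.234 CPM), and no fold is given for them.

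*Agbl3*, a deglutamylase, and *Ttll6*, a glutamate ligase, were lower in every cKO library than in any control. No other modifying enzyme among the members separated the genotypes, and 3.03% of all genes were lower in this way. The log2 fold change of cKO over control was below 0 for all 4 *Agbl* genes tested (median -1.17) and for 10 of 11 *Ttll* genes (median -0.39), but without control replicate 1 these medians were -0.59 and -0.20. It was above 0 for 4 of 6 alpha-tubulins (median 0.18) and, leaving out *Tubb4a*, for 5 of 6 beta-tubulins (median 0.15). Over the 36 members that passed the filter through both genotypes 20 were below 0 and the median was -0.10, beside 0.01 over all genes tested.

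With edgeR's quasi-likelihood test and p-values adjusted over all genes (Benjamini-Hochberg), no member passed 0.05 in either direction; in that test 8 genes of all passed as lower (0.0396%) and 0 as higher (0%). At an unadjusted p under 0.05, 5 members were lower (*Agbl3*, *Ttll6*, *Agbl2*, *Ttll13* and *Agbl5*; 13.5% of 37, beside 6.28% of all genes) and 3 were higher (*Tubg2*, *Tuba1b* and *Tuba1a*; 8.11%, beside 2.62%). DESeq2, the tool of the study, called *Agbl3* and *Ttll6* lower (5.41% of the members tested, beside 1.41% of all genes) and 0 members higher (beside 0.0892%). Every cKO library lay below every control library for the same 2 genes, *Agbl3* and *Ttll6* (5.41%, beside 3.03% of all genes), and above for *Tubg2* (2.7%, beside 2.47%). The counts of 2 below and 1 above were small, and both lay near the shares of all genes.

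When replicate 1 of both genotypes was left out, edgeR called 6 members lower (16.2% of 37, beside 3.78% of all genes) and 0 higher (beside 0.451%). They were *Agbl3*, *Agbl4*, *Agbl5*, *Ttll6*, *Tuba3a* and *Tuba3b*. Replicate 1 stood apart in these same data, so p-values of fits without it, here and below, are not separate support. With control replicate 1 or cKO replicate 1 alone left out, no member was called. The log2 fold changes moved little for *Agbl3* (-0.51 with all libraries and -0.43 without replicate 1) and *Ttll6* (-0.94 and -0.86).

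**Figure D2:**
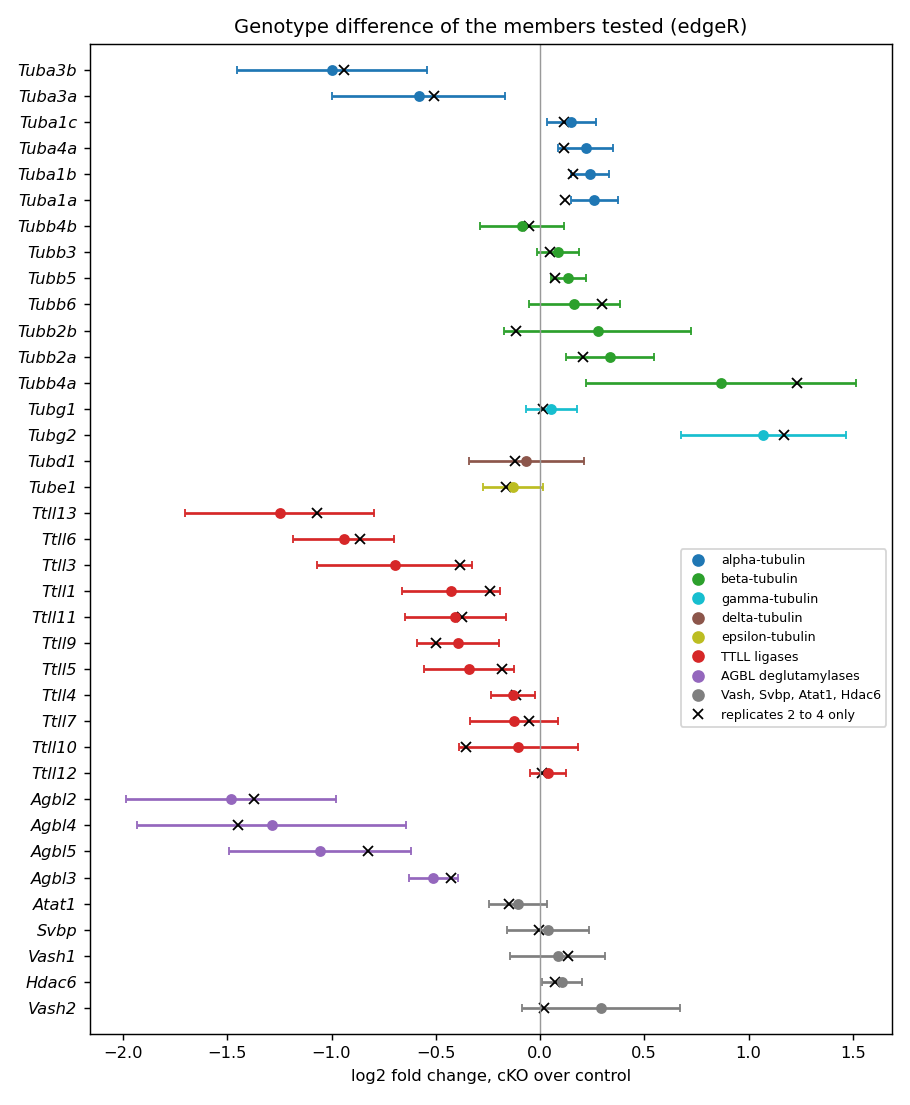
Log2 fold change of cKO over control for the 37 members tested (edgeR; points with bars of 1 SE, 4 libraries a genotype), coloured by family, with crosses for the fit on replicates 2 to 4. *Agbl* and most *Ttll* genes lie left of 0, *Tuba3a* and *Tuba3b* stand apart from the other alpha-tubulins, and no member passed the adjusted threshold with all libraries.

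Alpha-tubulin transcripts came mostly from the *Tuba1* genes, used by all cells, and from *Tuba3a* and *Tuba3b*, whose transcripts are mainly of the testis. On the TPM scale, which allows genes to be compared, mean levels in controls were 755 ± 363 (SD, n = 4) for *Tuba3a*, 638 ± 327 for *Tuba3b*, 615 ± 95.1 for *Tuba1b*, 554 ± 108 for *Tuba1a*, 124 ± 21.6 for *Tuba1c* and 20.2 ± 2.45 for *Tuba4a*. The first 4 overlapped one another, and *Tuba1c* and *Tuba4a* lay below them without overlap. In cKO the order was *Tuba1b* (717 ± 29.1), *Tuba1a* (653 ± 15.2), *Tuba3a* (500 ± 201), *Tuba3b* (317 ± 142), *Tuba1c* (135 ± 16.9) and *Tuba4a* (23.3 ± 2.76). Here every *Tuba1b* value lay above every *Tuba1a* value and every *Tuba3b* value lay below both.

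*Tuba3a* was at 1031, 425, 484 and 415 CPM in control replicates 1 to 4 and at 642, 308, 314 and 308 in cKO replicates 1 to 4. *Tuba3b* was at 1090, 416, 533 and 396 CPM in controls and at 517, 229, 244 and 229 in cKO. Replicate 1 was the highest library of each genotype for both genes, and its cKO value lay within the control range. The log2 fold change was -0.58 (SE 0.42, adjusted p = 0.71, edgeR) for *Tuba3a* and -1.0 (SE 0.45, adjusted p = 0.59) for *Tuba3b*. Among replicates 2 to 4 the genotypes did not overlap, with log2 fold changes of -0.51 (SE 0.06, adjusted p = 3.2e-07) and -0.94 (SE 0.11, adjusted p = 0.0026). As said above, these p-values come from leaving out the libraries that stood apart. Leaving out control replicate 1 alone gave -0.16 for *Tuba3a* and -0.55 for *Tuba3b*. Since the copies share most of their sequence, their counts were also summed: the sum was 1194 ± 617 CPM in controls and 699 ± 312 in cKO (SD, n = 4), a log2 fold change of -0.77 (SE 0.43, adjusted p = 0.65, edgeR). *Tuba3a* shares 30.6% of its exon bases with the noncoding gene *4930417O13Rik* on the opposite strand, and the libraries do not tell the strands apart.

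*Tuba1b* was at 473, 553, 576 and 655 CPM in control replicates 1 to 4 and at 674, 696, 634 and 662 in cKO. *Tuba1a* was at 402, 539, 563 and 624 CPM in controls and at 671, 626, 642 and 608 in cKO. Control replicate 4 reached the cKO range for each gene and the other controls lay below it. Log2 fold changes were 0.24 for *Tuba1b* (SE 0.09, adjusted p = 0.47, edgeR) and 0.26 for *Tuba1a* (SE 0.11, adjusted p = 0.54), and without replicate 1 they were 0.16 and 0.12. The summed counts of *Tuba1a*, *Tuba1b* and *Tuba1c* were 1217 ± 189 CPM in controls and 1440 ± 32.2 in cKO (log2 fold change 0.24, adjusted p = 0.52). *Tuba1c* alone had a log2 fold change of 0.15 and *Tuba4a* one of 0.22, with 51.9% of the *Tuba4a* exon bases shared with *Stk16* on the opposite strand.

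The make-up of alpha-tubulin transcripts was then described by shares of the summed TPM. *Tuba3a* and *Tuba3b* together made up 70.5, 43.0, 46.5 and 38.5% of it in the controls, by replicate number, and 46.7, 28.9, 30.5 and 29.5% in cKO. Only cKO replicate 1 reached the control range, and within each genotype it was replicate 1 that had the highest share. The summed alpha-tubulin level was 2337 to 3432 TPM in controls and 2141 to 2850 in cKO, and the ranges overlapped. As given above, the pachytene markers summed to 526 to 2094 TPM in controls and 209 to 681 in cKO, highest in replicate 1 of each, and their part in these values was not tested.

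**Figure D3:**
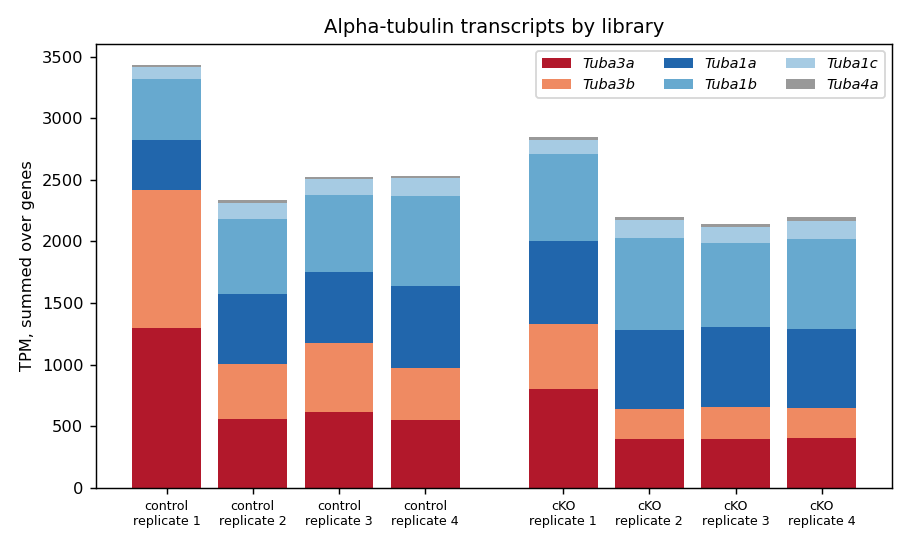
Stacked TPM of the 6 alpha-tubulin genes tested, in each control and cKO library; bar height is the sum over genes. The red and orange blocks (*Tuba3a* and *Tuba3b*) fill 38.5 to 70.5% of the control bars and 28.9 to 46.7% of the cKO bars, and the blue *Tuba1* blocks fill 29.1 to 60.6% and 52.5 to 70.1%.

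Beta-tubulin transcripts were led by *Tubb4b*, an isotype of cilia and flagella found in many cells, followed by *Tubb5* and by *Tubb3*, known from neurons and also found in Sertoli cells. *Tubb4b* was at 819, 525, 526 and 497 CPM in control replicates 1 to 4 and at 737, 494, 499 and 499 in cKO. *Tubb5* was at 426, 506, 447 and 551 CPM in controls and at 539, 540, 537 and 503 in cKO. Replicate 1 was again highest for *Tubb4b* in both genotypes, and the groups overlapped for both genes. Log2 fold changes were -0.09 for *Tubb4b* (SE 0.20), with the sign turning to 0.11 without control replicate 1, 0.13 for *Tubb5* (SE 0.08) and 0.09 for *Tubb3* (SE 0.10), with edgeR adjusted p of 0.93, 0.67 and 0.83. *Tubb5* shares 45.6% of its exon bases with *Flot1* on the opposite strand.

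On the TPM scale the beta-tubulins kept the order *Tubb4b* (715 ± 165 in controls and 667 ± 130 in cKO, SD, n = 4), *Tubb5* (341 ± 52.3 and 370 ± 9.06), *Tubb3* (191 ± 30.0 and 200 ± 17.4), *Tubb6* (28.8 ± 4.04 and 31.8 ± 10.0) and *Tubb2a* (8.47 ± 1.91 and 10.5 ± 2.00). These neighbours did not overlap in either genotype. *Tubb2b* and *Tubb4a* reached at most 2.36 and 1.39 TPM. Log2 fold changes of *Tubb6*, *Tubb2a* and *Tubb2b* ran from 0.16 to 0.34, with adjusted p of 0.66 to 0.89 in edgeR, and that of *Tubb2b* turned to -0.12 without replicate 1. *Tubb4a* passed the filter only through the library where it was highest, so its value is not read; *Tubb2a* shares 89.2% of its exon bases with *Bphl*. Summed beta-tubulin was 1158 to 1436 TPM in controls and 1217 to 1435 in cKO.

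Among the tubulins of centrosomes and centrioles, *Tubg1*, the main gamma-tubulin, was at 36.9, 33.3, 28.7 and 32.5 CPM in control replicates 1 to 4 and at 41.0, 33.8, 31.5 and 30.0 in cKO. *Tubd1* was at 19.9, 11.2, 12.1 and 10.5 CPM in controls and at 20.1, 10.3, 9.91 and 10.9 in cKO. *Tubd1* was higher in replicate 1 of each genotype than in any other library, and the genotypes overlapped for both genes. *Tubg2*, the second gamma-tubulin gene, was at 0.95, 1.17, 0.44 and 0.70 CPM in controls and at 1.66, 2.20, 1.33 and 1.70 in cKO. Every cKO library was above every control for *Tubg2*, from only 7 to 34 counts a library (log2 fold change 1.07, SE 0.40, adjusted p = 0.46, edgeR; two-sided exact permutation p = 0.029, the smallest that 4 against 4 allows). The log2 fold changes of *Tubg1* (0.05), *Tubd1* (-0.07) and *Tube1* (-0.13) were each smaller than their SE, and the signs of *Tubg1* and *Tubd1* turned when single libraries were left out.

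The TTLL enzymes were next compared by the kind of chain they make. *Ttll6*, which lengthens glutamate chains, was at 12.7, 7.0, 11.3 and 7.18 CPM in control replicates 1 to 4 and at 5.84, 5.05, 5.23 and 3.76 in cKO. All cKO libraries were below all controls. The log2 fold change was -0.94 (SE 0.24, adjusted p = 0.31 in edgeR and 0.030 in DESeq2). The two-sided exact permutation p of 0.029 is the one that any gene without overlap gets, so it adds nothing to that. *Ttll13*, another enzyme that lengthens glutamate chains, was at 68.6, 25.3, 37.0 and 19.2 CPM in controls and at 24.1, 11.3, 12.6 and 15.2 in cKO. Only cKO replicate 1 reached the control range, and the log2 fold change of -1.25 (SE 0.45) had an adjusted p of 0.51 in edgeR and 0.18 in DESeq2; it was -0.78 without control replicate 1. *Ttll11*, the third enzyme of this kind, had a log2 fold change of -0.41 (SE 0.24, adjusted p = 0.65, edgeR; -0.19 to -0.58 with single libraries left out).

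TTLL4 and TTLL5 start glutamate chains. *Ttll4* was at 169, 206, 210 and 213 CPM in control replicates 1 to 4 and at 149, 196, 178 and 206 in cKO. *Ttll5* was at 148, 79.7, 94.1 and 76.4 CPM in controls and at 93.7, 70.3, 73.6 and 76.9 in cKO. The groups overlapped for both, with log2 fold changes of -0.13 (SE 0.11, adjusted p = 0.73, edgeR) and -0.34 (SE 0.21, adjusted p = 0.67). The value moved to -0.08 for *Ttll5* without control replicate 1 and to -0.04 for *Ttll4* without cKO replicate 1. *Ttll12*, a family member whose enzymatic activity is not settled, was at 92.3, 95.9, 80.1 and 103 CPM in controls and at 101, 97.5, 89.0 and 93.1 in cKO, and had the only *Ttll* log2 fold change above 0 (0.04, SE 0.09), with the sign turning to -0.03 without control replicate 3. Of the others, *Ttll1* and *Ttll9*, glutamate ligases whose loss is known to impair sperm tails, had log2 fold changes of -0.43 and -0.39, and *Ttll7*, which acts on beta-tubulin, one of -0.13; *Ttll1* was at -0.14 to -0.58 when single libraries were left out.

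Of the glycine ligases, *Ttll3*, which starts chains, was measured at 2.11 to 5.16 CPM in controls and 1.33 to 4.26 in cKO, and *Ttll10*, which lengthens them, at 1.77 to 3.44 and 2.20 to 3.26. The genotypes overlapped for both, with log2 fold changes of -0.70 (SE 0.37) and -0.10 (SE 0.29) and edgeR adjusted p of 0.62 and 0.95. *Ttll3* shares 29.7% of its exon bases with *Rpusd3* on the opposite strand. On the TPM scale *Ttll4* led the family in controls (61.9 ± 11.1, SD, n = 4), followed by *Ttll5* (48.8 ± 10.8) and *Ttll12* (43.1 ± 5.53), whose ranges overlapped, and *Ttll13* (29.2 ± 14.0). All other *Ttll* genes tested had means between 2.56 and 10.9 TPM.

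The deglutamylases had the lowest median fold change of the families. *Agbl3* was at 38.6, 32.7, 36.3 and 27.5 CPM in control replicates 1 to 4 and at 22.9, 24.5, 22.8 and 24.7 in cKO. Every cKO library was below every control, and replicate 1 did not stand apart. The log2 fold change was -0.51 (SE 0.12, adjusted p = 0.24 in edgeR and 0.010 in DESeq2). The two-sided exact permutation p of 0.029 again only restates the lack of overlap. AGBL3 and AGBL2 both shorten glutamate chains. *Agbl2* was at 98.8, 34.8, 56.5 and 25.6 CPM in controls and at 31.9, 15.4, 16.1 and 13.9 in cKO. Only cKO replicate 1 reached the control range, and the log2 fold change of -1.48 (SE 0.50, 2.79 times lower) had an adjusted p of 0.48 in edgeR and 0.11 in DESeq2; it was -1.01 without control replicate 1.

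*Agbl5*, which removes the glutamate at a branch point and is known to be needed for sperm formation, was at 293, 111, 131 and 91.2 CPM in control replicates 1 to 4 and at 113, 60.4, 62.9 and 65.5 in cKO. Replicate 1 was the highest of each genotype, and cKO replicate 1 lay within the control range. Its log2 fold change was -1.05 (SE 0.44, adjusted p = 0.56, edgeR), -0.83 without replicate 1 of both genotypes (SE 0.12, adjusted p = 0.0015) and -0.56 without control replicate 1 alone (adjusted p = 0.77). *Agbl5* shares 46.1% of its exon bases with *Ost4* on the opposite strand, which had a log2 fold change of -0.19, and the libraries cannot assign such reads. *Agbl4*, which trims long chains, was at 11.6, 3.31, 4.42 and 2.73 CPM in controls and at 5.18, 1.16, 1.40 and 1.28 in cKO. Here too cKO replicate 1 overlapped the controls, with a log2 fold change of -1.29 (SE 0.64, adjusted p = 0.60, edgeR) for all libraries, -1.45 (SE 0.35, adjusted p = 0.0065) for replicates 2 to 4, -0.62 without control replicate 1 alone and -2.10 without cKO replicate 1 alone.

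Summed over *Agbl2*, *Agbl3*, *Agbl4* and *Agbl5*, controls 1 to 4 stood at 277, 120, 152 and 102 TPM, and cKO libraries at 108, 70.0, 67.2 and 70.4. Replicate 1 was the highest library of each genotype, and cKO replicate 1 alone reached into the control range. *Agbl5* was the most abundant of the family (99.9 ± 53.7 TPM in controls and 46.6 ± 14.1 in cKO, SD, n = 4). *Agbl2* (30.3 ± 18.8) and *Agbl3* (26.4 ± 3.06) overlapped in controls, whereas in cKO *Agbl3* (19.5 ± 1.11) lay above *Agbl2* (10.2 ± 3.72) in every library.

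**Figure D4:**
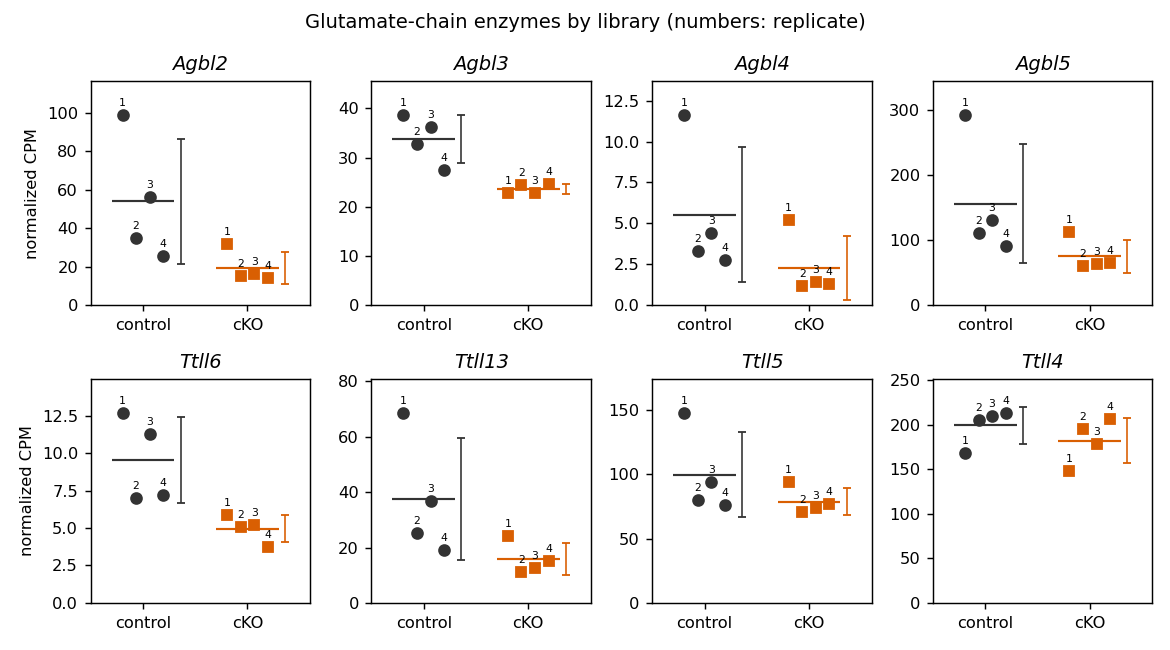
Normalized CPM of 4 *Agbl* and 4 *Ttll* genes in each library (small numbers are replicates); horizontal lines are means and side bars 1 SD of 4 libraries, and each vertical axis starts at 0. *Agbl3* and *Ttll6* have no overlap between genotypes, whereas for *Agbl2*, *Agbl4*, *Agbl5* and *Ttll13* cKO replicate 1 lies within the control range.

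Promoters of the members were read from the RefSeq table (GRCm38.p6, 250 bases before to 50 after the start; 37 of 42 members matched) and searched on both strands for GTTGCC, the core of the X-box bound by RFX factors, which act on ciliary genes. It was found in 9 of the 37 promoters (24.3%), beside 12.5% of 32851 promoters of that length. Members were counted once per gene, whereas the 32851 were not limited in that way, so the shares are of unlike sets. The 9 include the untested *Ttll8* and *Tuba8*. The promoters of *Ttll6*, *Ttll13*, *Agbl4* and *Agbl5* held no match. A match is a description of letters and not of binding. The promoters of *Agbl3* and *Agbl2* are shown as the ones with a match among the *Agbl* genes; capitals mark the motif on either strand.
*Agbl3* (GRCm38.p6, chr6:34780182-34780481, plus strand): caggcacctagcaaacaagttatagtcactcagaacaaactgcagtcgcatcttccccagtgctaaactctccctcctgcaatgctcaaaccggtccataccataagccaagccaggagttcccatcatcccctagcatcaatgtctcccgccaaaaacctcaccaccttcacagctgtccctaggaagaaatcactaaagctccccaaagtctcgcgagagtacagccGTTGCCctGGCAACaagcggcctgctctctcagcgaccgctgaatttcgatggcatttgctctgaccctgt
*Agbl2* (GRCm38.p6, chr2:90782477-90782776, plus strand): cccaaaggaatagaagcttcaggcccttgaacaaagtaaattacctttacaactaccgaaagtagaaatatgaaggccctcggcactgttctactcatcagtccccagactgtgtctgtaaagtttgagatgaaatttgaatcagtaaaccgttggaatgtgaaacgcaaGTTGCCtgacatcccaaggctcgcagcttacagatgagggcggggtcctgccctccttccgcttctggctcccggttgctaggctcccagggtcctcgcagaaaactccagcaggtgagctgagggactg
*Agbl3* held the motif 2 times, facing each other, and *Agbl2* 1 time.

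The remaining enzymes act on the C-terminal tyrosine and on acetylation. *Hdac6* was at 396, 524, 465 and 526 CPM in control replicates 1 to 4 and at 468, 547, 499 and 544 in cKO. *Svbp* was at 25.9, 16.4, 19.0 and 17.3 CPM in controls and at 28.2, 18.5, 17 and 16.9 in cKO. The genotypes overlapped for both, and *Svbp* was highest in replicate 1 of each. Log2 fold changes were 0.11 (SE 0.10, adjusted p = 0.76, edgeR) and 0.04 (SE 0.20, adjusted p = 0.98), the latter turning to -0.17 without cKO replicate 1. *Atat1* (-0.11), *Vash1* (0.08) and *Vash2* (0.29) had log2 fold changes smaller than their SE, and the sign for *Vash1* turned to -0.04 without control replicate 4. On the TPM scale *Hdac6* (246 ± 35.3 in controls, SD, n = 4) stood well above *Svbp* (68.8 ± 13.5) and *Atat1* (27.5 ± 4.84), and *Vash1* (3.28 ± 0.81) above *Vash2* (0.91 ± 0.46).

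Other genes of the pathway were counted from lists, and edgeR called no gene of these lists in either direction, whereas DESeq2 called 1 gene lower and 0 higher. Of 11 partner enzymes and subunits, 4 were lower and 0 higher at an unadjusted p under 0.05, with a median log2 fold change of -0.14, beside 6.28% lower and 2.62% higher of all genes. The lowest was *Matcap2* (named *9530077C05Rik* in the table), a relative of the tyrosine-removing protease *Matcap1*, at 33.1 ± 8.39 CPM in controls and 20.0 ± 1.01 in cKO (SD, n = 4; log2 fold change -0.73, adjusted p = 0.23 in edgeR and 0.0092 in DESeq2). The other 3 were *Agtpbp1* (-0.42), the deglutamylase also called CCP1, *Sirt2* (-0.32), a tubulin deacetylase, and *Cstpp1* (-0.28, named *1110051M20Rik*), a subunit of the TTLL1 complex. For *Matcap2* and *Sirt2*, of these 11, every cKO library lay below every control library, as it did for 3.03% of all genes. Without control replicate 1, 2 of the 11 were lower and 0 higher at an unadjusted p under 0.05 in edgeR (median log2 fold change -0.20). In that fit 874 of all 20187 genes were lower. *Ttl*, the ligase that puts tyrosine back, had a log2 fold change of 0.01.

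Among 8 severing genes tested out of 9, those lower at an unadjusted p under 0.05 included the katanin genes *Katnal2* (log2 fold change -0.73) and *Katnal1* (-0.38), which cut microtubules, and the 1 higher gene was *Katnbl1* (0.28), a katanin regulator; the shares of all genes are those just given. Of 23 tubulin folding genes, 1 was lower (*Tbcel*, -0.25) and 1 was higher (*Vbp1*, 0.24, a prefoldin subunit), at an unadjusted p under 0.05. These counts are near the shares of all genes, and the median log2 fold change was -0.06. Without control replicate 1, 1 severing gene was lower and 1 higher (median -0.13), against 3 lower and 1 higher (median -0.24) with all libraries. In that fit 0 folding genes were lower and 1 was higher (median 0.03). None of 8 genes of the gamma-tubulin ring complex (median -0.03) and neither of 2 genes of tubulin mRNA autoregulation (median -0.09) passed an unadjusted p of 0.05 in edgeR, and none of them was called by it after adjustment.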

How the data were processed

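Poly(A) RNA libraries (non-stranded, paired-end) of 8 germ cell samples were used. The authors aligned reads to mm39 with STAR 2.7.9a and quantified genes with RSEM 1.3.3, and deposited expected counts and TPM per gene (6.37% of expected counts were not whole within 1e-06). Here counts were rounded, the 20187 genes that reached 1 TPM anywhere were kept, and genotypes were compared with edgeR 4.0.16 (TMM, robust quasi-likelihood, R 4.3.3), Benjamini-Hochberg adjusted over all of them. CPM are TMM-normalized. DESeq2 1.42.0 (the authors used 1.38.3), limma 3.58.1, other scalings and filters, a replicate block and leaving out libraries were alternatives, and single values were tested by exact permutation over 70 assignments. Estimated counts of near-identical genes depend on how RSEM divided shared reads. Totals of 12584726 to 15907505 per sample limit genes near 3 counts; such limits cover counting error only. Coordinates are GRCm39 (GENCODE vM39, all 42 identifiers matched), except those of promoters, which are GRCm38.p6. Every member was named at least once, and values in every sample were given for members called in edgeR, DESeq2 or the block, with an unadjusted p under 0.05, or among the 2 most abundant of a class (gamma-, delta- and epsilon-tubulin counted as 1 class). Other list genes were named at an unadjusted p under 0.05. *Ttll12* met the rule for values in every sample by its mean TPM (43.2, beside 43.1 for *Ttll5*). Its values, *Ttl* and overlapping genes were added after the values were seen. *Ttll5* fell outside this rule, with the block taken in edgeR, and its values were added too. The members and lists were chosen with earlier results of these data known. Some results are not reported here. Scripts were tested on simulated data.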

Additional observations from a re-analysis of the deposited data

Results flagged for a closer look

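In 16 of 76 groups (38 genes with *Mgat2*, each in 2 genotypes), 1 library stood further from the other 3 than Dixon's 95% critical value for 4 samples allows; chance gives about 1 in 20 groups. Of the 16 flagged libraries, 12 were replicate 1, and in 11 of the 16 the flagged value was the highest. In cKO replicate 1, *Tuba3a* was at 642 CPM (others 308 to 314), *Tuba3b* at 517 (229 to 244), *Tubb4b* at 737 (494 to 499), *Tubd1* at 20.1 (9.91 to 10.9), *Svbp* at 28.2 (16.9 to 18.5), *Agbl5* at 113 (60.4 to 65.5), *Agbl2* at 31.9 (13.9 to 16.1) and *Agbl4* at 5.18 (1.16 to 1.40). In control replicate 1, *Tuba3a* was at 1031 CPM (others 415 to 484), *Tubb4b* at 819 (497 to 526) and *Tubd1* at 19.9 (10.5 to 12.1), and *Ttll10* was lowest at 1.77 (3.24 to 3.44). Low values stood apart for *Ttll3* in control replicate 4 (2.11 CPM, others 4.80 to 5.16), *Tubb5* in cKO replicate 4 (503, others 537 to 540), and *Vash2* (1.61, others 2.48 to 2.65) and *Tubb2a* (6.42, others 9.64 to 10.0) in cKO replicate 3.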

How the results depend on the processing

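Of 420 values (20 genes under 21 settings), 408 kept their sign and 31 newly passed an adjusted p of 0.05. Members called lower numbered 0 in edgeR, 2 in DESeq2 with or without independent filtering, and 6 with replicates 2 to 4 of both genotypes; leaving out single libraries gave 0 to 0. Lower members at an unadjusted p under 0.05 numbered 5, against 8 with limma-voom, 8 with limma-trend on log2(TPM + 1) or log2(TPM + 0.1), 10 with replicates 2 to 4, and 2 to 9 with single libraries left out (9 without cKO replicate 1, 2 without cKO replicate 2 or 4, 3 without control replicate 1 or cKO replicate 3). Higher members numbered 3, against 1 with limma-trend on either pseudocount and 0 to 4 with single libraries left out (0 without cKO replicate 2, 1 without control replicate 2 or 3). Of all 20187 genes, 1267 were lower at that level in edgeR, 1450 with limma-voom, and 1416 and 1491 with limma-trend on the 2 pseudocounts. There were 1816 with replicates 2 to 4, 874 without control replicate 1, and 1845 without cKO replicate 1. Higher genes numbered 529, against 380 and 378 with limma-trend. The counts of all genes thus moved with the setting too. The median log2 fold change of the members ran from -0.15 without cKO replicate 1 to 0.02 without control replicate 1. The cause of these differences was not tested, beyond fewer samples where libraries were left out.

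With the replicate number as a replicate block, 8 members were called lower and 1 higher in edgeR (14 and 5 at an unadjusted p under 0.05), and 9 and 1 in DESeq2 (10 lower at an unadjusted p); of all genes 6.45% and 0.802% were called lower and higher with the block in edgeR and 5.66% and 0.401% in DESeq2. At an unadjusted p under 0.05, 2297 of all 20187 genes were lower and 1225 higher with the block in edgeR. With the block in DESeq2, 1999 were lower. The replicate numbers did not pair all samples by the test used. Deviations of same-numbered samples correlated at 0.53, 0.14, 0.04 and 0.20 (mean 0.23, beside -0.07 for samples of unlike number). Control replicates 1 and 4 correlated best with the cKO sample of their own number, and control replicates 2 and 3 did not. Summing *Tuba3a* and *Tuba3b*, chosen after seeing the data, gave an adjusted p of 0.65 in edgeR, 0.62 in DESeq2 and 1.8e-10 with the block.

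Signs turned when single libraries were left out, with no call on either side, among genes described by sample for *Svbp* (log2 fold change -0.17 to 0.20, with turned values of -0.04, -0.011 and -0.17 without control replicate 2, control replicate 4 and cKO replicate 1), *Ttll12* (-0.027 to 0.094; turned without control replicate 3), *Tubb4b* (-0.25 to 0.11; turned without control replicate 1), *Tubd1* (-0.37 to 0.19; turned without control replicate 1 and cKO replicates 2, 3 and 4) and *Tubg1* (-0.048 to 0.12; turned without control replicate 3 and cKO replicate 1). Of the other members, *Vash1* (-0.04 to 0.23) and *Tubb2b* (-0.0015 to 0.58) turned too, and *Tubb2b* was at -0.12 with replicates 2 to 4. *Svbp* was at -0.0061 with replicates 2 to 4.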
